A study of Mus musculus with 22 samples.

Results

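Otoa, Prelp, Sh2d3c, Cacng6, Phkg1 and Car2 are 6 genes whose mRNA was higher after induction of Msi1 in mouse cortical neural stem cells (NSCs), both in cells taken at embryonic day E12.5 and in cells taken at E13.5. They are 6 of the 22623 genes in each RNA-Seq file, and they were chosen from the measured mRNA values of tetO-Msi1 cells with and without doxycycline (Dox). Their change in that contrast is therefore described without a test. Otoa, Prelp, Sh2d3c, Cacng6 and Phkg1 were at least 2-fold higher at both stages, and Car2 was at least 2-fold higher at E12.5 and 1.8-fold higher at E13.5. The other libraries, in which the genes were not chosen, were used to ask where else the 6 genes moved.

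NSCs were cultured from the mouse embryonic cortex, in medium with EGF and bFGF, and their mRNA (RNA-Seq) and ribosome footprints (Ribo-Seq) were sequenced. KH2, tetO-Msi1 and tetO-Msi2 cells all carried the m2rTTA transactivator in the Rosa26 locus. The tetO lines also carried an Msi1 or Msi2 cDNA in the Col1A1 locus that Dox switches on, and KH2 cells carried neither, so that they controlled for Dox. Cells of these lines were given 1 µg/ml Dox or none for 72 h. C1 and C4 cells had floxed alleles of both Msi1 and Msi2. C4 cells also carried CreER, a recombinase that 4-hydroxytamoxifen (4-OHT) activates, and C1 cells lacked it and controlled for 4-OHT, which was given or withheld for 48 h. At E12.5 all 5 lines, with and without their agent, were profiled by RNA-Seq, and all but tetO-Msi2 by Ribo-Seq. The E13.5 RNA-Seq samples were untreated KH2 cells and both states of tetO-Msi1 cells. Each condition was 1 library of 1 cell line. The exception was untreated tetO-Msi1 at E13.5, with a technical pair whose reads were pooled here. The p-values below therefore rest on the spread between lines or stages, which the tests share in part or wholly across genes. They do not measure the spread between cultures of one line.

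Musashi-1, the product of Msi1, is an RNA-binding protein of neural and epithelial stem cells that binds UAG-containing motifs in mRNAs and is best known as a regulator of their translation. The 6 genes do not form a known pathway. Otoa encodes otoancorin, which attaches acellular gels to sensory epithelia of the inner ear, and Prelp encodes a small leucine-rich repeat proteoglycan that links basement membranes to connective tissue. Sh2d3c encodes an SH2-domain adaptor that binds Cas-family scaffold proteins in adhesion signalling, and Cacng6 a gamma subunit of voltage-gated calcium channels. Phkg1 encodes a catalytic gamma subunit of phosphorylase kinase, which switches on glycogen breakdown, and Car2 encodes carbonic anhydrase II, a cytosolic enzyme that hydrates carbon dioxide and is abundant in glia of the oligodendrocyte lineage.

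Because Musashi proteins bind 3′ UTRs, the longest 3′ UTR annotated for each was searched for the Musashi consensus, written here in DNA letters as G or A, then 1 to 3 T, then AGT, on the sense strand. At least 1 match stood in 64.9% of the 19381 3′ UTRs of at least 50 nt in the mouse annotation, with a median of 1.22 matches per kb. Of the 6 genes, 5 had an annotated 3′ UTR and 4 of these held a match. The sites are shown since they are the letters Musashi-1 is known to bind, with the motif in capitals and the build NCBIM37 (mm9).
Prelp, chr1:135807544-135807568, minus strand: gctgggccctATAGTccagaaaccc
Sh2d3c, chr2:32610741-32610765, plus strand: aggagaaaccATAGTtccccccccc
Phkg1, chr5:130339838-130339862, minus strand: gttgatgtctATAGTtttcttgttt
Car2, chr3:14900491-14900515, plus strand: taaaacagtcATAGTtttgtgatta
Car2, chr3:14900663-14900687, plus strand: aaaaattgatATAGTtgtgatacag
All 5 sites have the same core, ATAGT, which is among the forms the consensus allows. How common that form is among the matches in all 3′ UTRs was not counted. Car2 held 2 matches in 679 nt, or 2.95 per kb, and 18.9% of all 3′ UTRs were as dense or denser. Prelp, with 1 match in 2302 nt (0.434 per kb), Sh2d3c, with 1 in 941 nt (1.06 per kb), and Phkg1, with 1 in 1020 nt (0.980 per kb), lay below the median density. The 3′ UTR of Otoa, 166 nt long, held none, and none is annotated for Cacng6.

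The genes lie on 5 chromosomes. In NCBIM37, Otoa spans chr7:128226836-128306611 (plus strand), Cacng6 chr7:3425423-3435658 (plus), Prelp chr1:135806881-135817991 (minus), Sh2d3c chr2:32576575-32611032 (plus), Phkg1 chr5:130339297-130374419 (minus) and Car2 chr3:14886426-14900769 (plus). As the genes were chosen for a rise in the same contrast, the 250 bases before the annotated start were compared for the 5 genes in a RefSeq promoter table (GRCm38.p6), Otoa, Prelp, Sh2d3c, Cacng6 and Phkg1. Letters were searched on both strands. CCAAT was present before Otoa, Prelp, Sh2d3c and Phkg1 and in 33.8% of 32851 promoters. TGGGAA was present before Prelp and in 21.6% of promoters, and neither TATAAA (12.4% of promoters) nor GGGCGG (32.7%) was present before any of the 5. The upstream sequences of the genes with the largest changes at E12.5 and at E13.5 and of Prelp, which held both kinds of match, are shown with the matches in capitals (ATTGG is CCAAT and TTCCCA is TGGGAA on the other strand).
Otoa, chr7:121083174-121083423, plus strand: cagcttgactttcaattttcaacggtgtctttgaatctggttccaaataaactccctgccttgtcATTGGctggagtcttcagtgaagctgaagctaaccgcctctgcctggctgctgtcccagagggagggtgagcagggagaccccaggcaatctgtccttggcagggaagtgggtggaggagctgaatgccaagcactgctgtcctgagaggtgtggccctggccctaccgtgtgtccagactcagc
Sh2d3c, chr2:32727439-32727688, plus strand: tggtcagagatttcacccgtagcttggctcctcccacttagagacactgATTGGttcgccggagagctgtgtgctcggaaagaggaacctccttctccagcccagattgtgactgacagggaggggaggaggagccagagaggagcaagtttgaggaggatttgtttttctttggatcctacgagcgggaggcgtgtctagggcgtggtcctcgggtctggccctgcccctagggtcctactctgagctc
Prelp, chr1:133921402-133921651, minus strand: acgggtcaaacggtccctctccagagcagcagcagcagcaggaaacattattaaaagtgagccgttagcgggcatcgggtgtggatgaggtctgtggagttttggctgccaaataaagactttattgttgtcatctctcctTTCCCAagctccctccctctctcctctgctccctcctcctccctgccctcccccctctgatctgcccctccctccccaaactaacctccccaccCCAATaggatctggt
The CCAAT letters begin at -15 from the start in Prelp, on the sense strand. In Otoa and Sh2d3c they are on the other strand and farther upstream, at -185 and -201.

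Counted reads in genes came to between 7889966 and 22248145 per library for Dox at E12.5, 18956807 to 50388807 at E13.5, and 45750593 to 58435172 in C1 and C4 cells. The library of tetO-Msi1 cells with Dox at E12.5 was the shallowest in RNA-Seq and also in Ribo-Seq, where 657288 to 6381242 footprints were counted. The counted reads were 14.9 to 15.8% of the reads behind the deposited RPKM values (reads per kilobase of gene and per unit of sequencing depth) in the first of these sets and 28.2 to 34.1% in the others. Levels in RPKM are therefore compared here only within a set, except as a check of scale in untreated cells. The correlations at the end, which span the sets, are a description. Msi1 mRNA followed the labels, at 19.7 RPKM without and 108 RPKM with Dox in tetO-Msi1 cells at E12.5, and at 50.9 and 208 RPKM at E13.5. Msi2 mRNA was lower with Dox in the same cells. It was at 31.6 RPKM without and 19.8 RPKM with Dox at E12.5 (log2 change -0.67), and at 55.5 and 25.4 RPKM at E13.5 (-1.13). In KH2 cells at E12.5 Msi2 mRNA was at 29.9 RPKM without and 31.5 RPKM with Dox. Induction of Msi1 thus went with less Msi2 mRNA, and the part of either change in the levels of other genes was not tested. In C4 cells the library labelled 4-OHT had 0.115 times the untreated Msi2 mRNA, while its Msi1 mRNA was at 0.996 times the untreated level. Msi1 footprints in C4 cells were at 2.82 RPKM (56 reads) without and 1.11 RPKM (20 reads) with 4-OHT. Where the floxed Msi1 exons lie within the counted region is not given in the sources used here, so the Msi1 mRNA count may not check the label. Of the neural stem markers Nes, Sox2, Fabp7, Vim, Prom1, Emx2, Hes1 and Hes5, all 8 in the files passed the filter on low counts, and their summed level in tetO-Msi1 cells was 2200 RPKM without and 1830 RPKM with Dox at E12.5 and 4710 and 4560 RPKM at E13.5.

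Otoa had the largest of the 6 changes at E12.5. In tetO-Msi1 cells its level was 0.100 RPKM (32 reads) without Dox and 0.680 RPKM (84 reads) with Dox, a log2 change of 2.76 (95% counting interval 2.18 to 3.35). The E13.5 levels were 0.0977 RPKM (49 reads, 12 and 37 in the technical replicates) and 0.532 RPKM (208 reads), and the log2 change was 2.44 (1.99 to 2.89). In the 5 other tet-line libraries of E12.5 Otoa lay between 0.0831 RPKM in KH2 cells with Dox and 0.100 RPKM, and in untreated KH2 cells of E13.5 it was at 0.128 RPKM. At each stage the condition with induced Msi1 was thus above the others. These intervals, like all counting intervals below, come from the read counts and cover counting error only.

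Prelp had nearly the same change at both stages. At E12.5 it stood at 0.771 RPKM (112 reads) without and 2.67 RPKM (150 reads) with Dox, which is a log2 change of 1.79 (1.44 to 2.15). At E13.5 the levels were 2.31 RPKM (526 reads) and 8.34 RPKM (1482 reads), for a log2 change of 1.85 (1.71 to 2.0). Untreated tetO-Msi1 cells already differed from KH2 cells in this gene. Prelp was at 0.400 RPKM (35 reads) in untreated KH2 cells of E12.5 and at 1.20 RPKM (111 reads) in those of E13.5, so that untreated tetO-Msi1 cells were 1.93-fold (log2 0.95, 0.40 to 1.49) and 1.92-fold (log2 0.94, 0.65 to 1.24) above them. Prelp was also 1.67-fold above KH2 in untreated tetO-Msi2 cells (log2 0.74, 0.14 to 1.34).

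Sh2d3c and Cacng6 are the signalling and channel genes of the 6, both with few reads. Sh2d3c had 50 reads in both E12.5 libraries of tetO-Msi1 cells, which the shallower library with Dox turns into 0.722 RPKM without and 1.87 RPKM with Dox, or a log2 change of 1.37 (0.81 to 1.94). The E13.5 levels of 0.571 RPKM (62 reads) and 4.47 RPKM (379 reads) give 2.97 (2.58 to 3.36), the largest change of the 6 at that stage. Its change was larger at E13.5 than at E12.5 by 1.60 on the log2 scale (0.91 to 2.28). Cacng6 went from 0.234 RPKM (20 reads) to 0.755 RPKM (25 reads) at E12.5, a log2 change of 1.69 (0.84 to 2.54). At E13.5 its level was 0.0968 RPKM (13 reads) without and 0.745 RPKM (78 reads) with Dox, a log2 change of 2.94 (2.10 to 3.79). The untreated value rests on 2 and 11 reads in the technical replicates, and the log2 change against replicate 1 alone was 3.96.

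KH2 cells gave a further untreated level of Cacng6, 0.330 RPKM (17 reads) untreated at E12.5 and 0.202 RPKM (11 reads) at E13.5. Against untreated KH2 cells the E13.5 log2 change of Cacng6 was 1.88 (0.97 to 2.79). Against KH2 cells with Dox the E12.5 log2 change was 1.28 (0.51 to 2.06) for Cacng6 and 3.09 (2.28 to 3.90) for Sh2d3c, whose level in untreated KH2 cells was 0.336 RPKM (14 reads). The choice of control thus moved the E12.5 change of Sh2d3c, from 1.37 to 3.09, and the E13.5 change of Cacng6, from 2.94 to 1.88. The E12.5 change of Cacng6, 1.69 (0.84 to 2.54) against untreated tetO-Msi1 cells, stayed within its counting interval.

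The enzymes Phkg1 and Car2 had smaller changes. For Phkg1 the E12.5 levels were 1.44 RPKM (160 reads) without and 3.41 RPKM (146 reads) with Dox, a log2 ratio of 1.24 (0.91 to 1.56). Its E13.5 levels were 1.4 RPKM (243 reads) and 4.37 RPKM (593 reads), a log2 ratio of 1.65 (1.43 to 1.86). Untreated KH2 cells were close to untreated tetO-Msi1 cells in Phkg1, at 1.41 RPKM (94 reads) at E12.5 and 1.36 RPKM (96 reads) at E13.5. Car2 had by far the highest RPKM of the 6, 12.9 (904 reads) without and 34.3 (927 reads) with Dox at E12.5, a log2 ratio of 1.41 (1.27 to 1.54). Its change was smaller at E13.5, with 44.7 RPKM (4909 reads) and 80.7 RPKM (6904 reads) and a log2 ratio of 0.85 (0.80 to 0.90). Its untreated tetO-Msi1 library at E12.5 had the lowest value among the 6 libraries of that set. Against KH2 cells with Dox, at 20.9 RPKM (1539 reads), Car2 was 1.64-fold higher in tetO-Msi1 cells with Dox, and against untreated KH2 cells at E13.5, at 49.1 RPKM (2188 reads), it was also 1.64-fold higher.

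**Figure D1:**
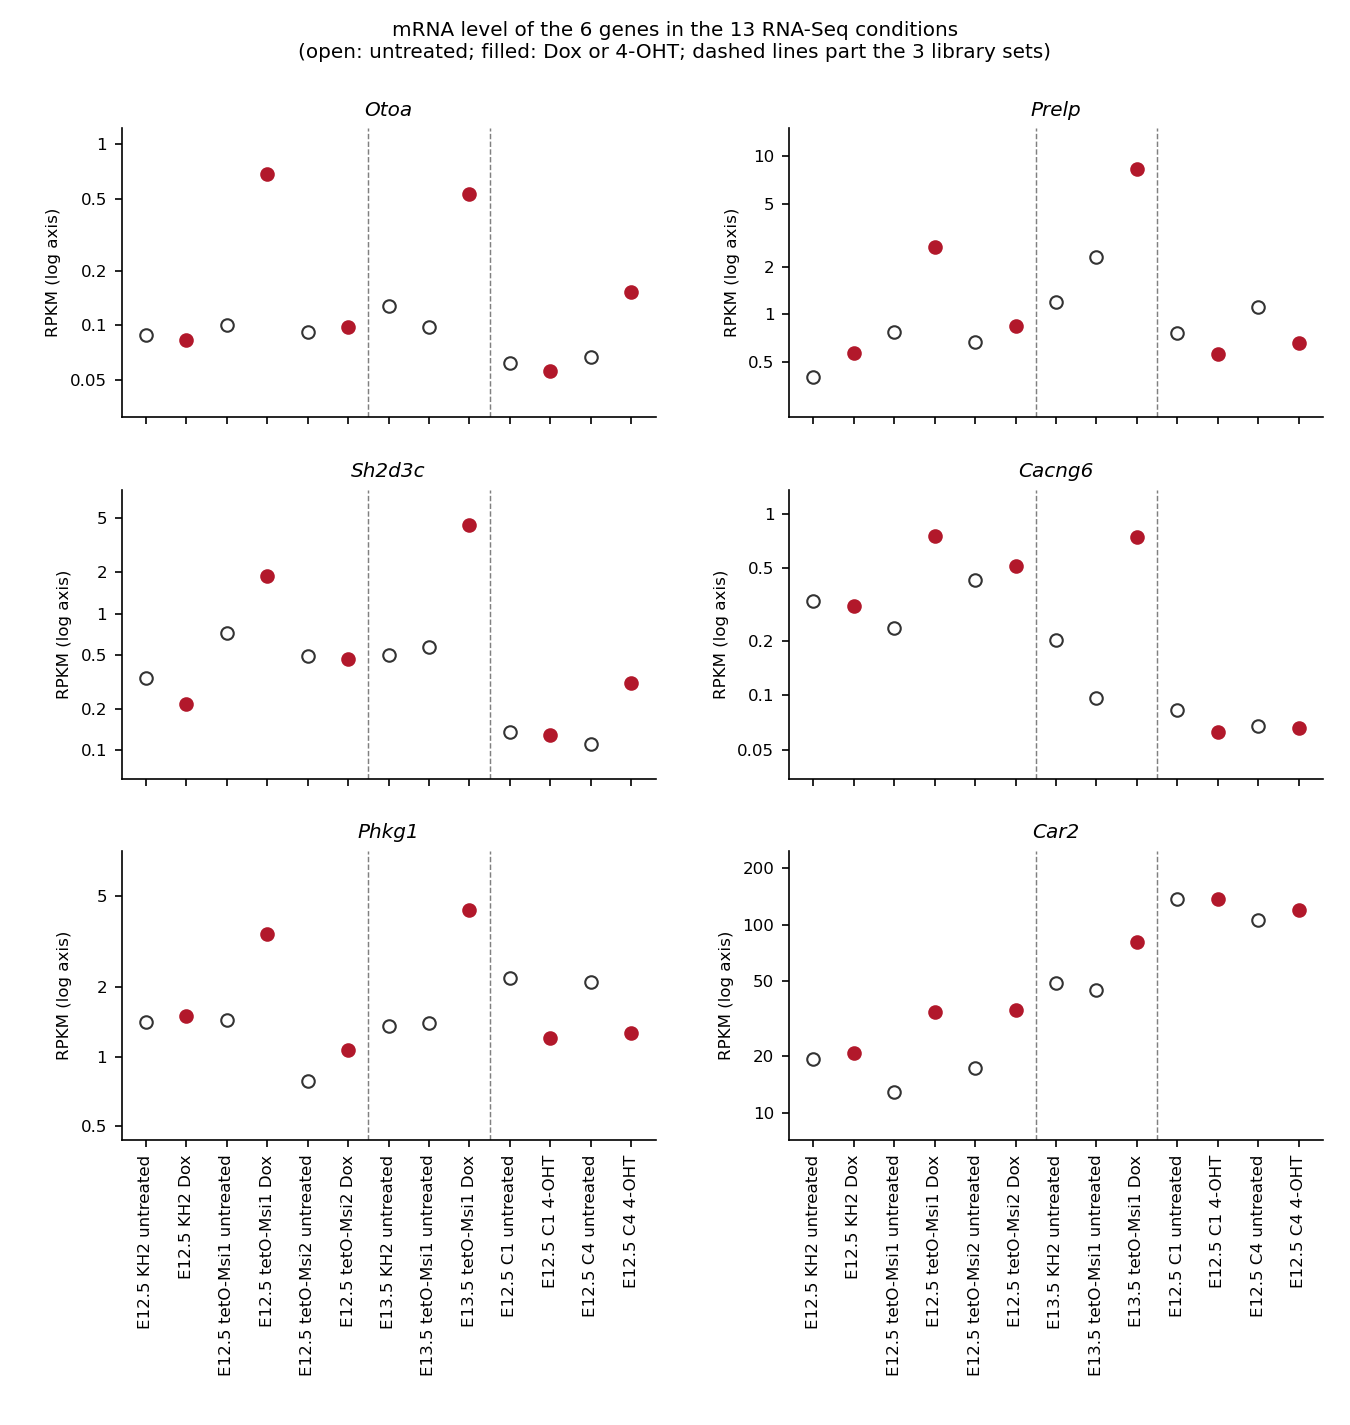
mRNA level (RPKM, log axis) of each gene in the 13 RNA-Seq conditions, with open circles for untreated cells and filled circles for cells given Dox or 4-OHT; dashed lines part the 3 sets of libraries, between which RPKM is not compared. In the 5 panels other than Car2, the induced tetO-Msi1 condition is the highest point of its set; Otoa, for example, is at 0.680 RPKM there at E12.5, beside 0.100 RPKM or less in the rest of the set, and at 0.532 RPKM at E13.5, beside 0.128 RPKM or less.

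Among genes with at least 5 reads in both libraries, 2.31% of 12275 were at least 2-fold higher with Dox in tetO-Msi1 cells at E12.5, 3.36% of 13429 at E13.5, and 0.383% of 12011 at both stages, of which the 6 genes supplied 5 by their choice. The median log2 change of the 6 was 1.55 at E12.5 and 2.15 at E13.5, beside -0.01 and 0.09 over all genes. Adding 0.5 to each RPKM lowered these medians to 0.99 and 1.21, since 4 of the 6 genes were under 1 RPKM in untreated cells of E12.5. RNA of the whole culture was measured, so a larger number of expressing cells and more mRNA per cell cannot be told apart.

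The first comparison that did not enter the choice was Dox in KH2 cells, which lack a Msi transgene. The changes of the 6 genes were small there and of both signs. Log2 changes ranged from -0.62 for Sh2d3c (16 reads with and 14 without Dox; -1.65 to 0.42) to 0.51 for Prelp (87 and 35 reads; -0.06 to 1.07), and every interval included 0. None of the 6 was 2-fold higher, beside 0.548% of 12601 genes. Otoa changed by -0.09 (-0.96 to 0.78), Cacng6 by -0.09 (-0.96 to 0.78), Phkg1 by 0.09 (-0.27 to 0.45) and Car2 by 0.11 (-0.01 to 0.23). Because KH2 cells with Dox were measured at E12.5 only, a response to Dox itself at E13.5 was not measured. The Dox change in tetO-Msi1 cells exceeded that in KH2 cells for all 6 genes at E12.5, by 2.85 for Otoa (1.8 to 3.90) down to 1.15 for Phkg1 (0.66 to 1.64), but the tetO-Msi1 term of this difference is the one the genes were chosen on.

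In tetO-Msi2 cells with Dox against those without, Car2 alone of the 6 reached the 2-fold limit, as did 1.24% of 12468 genes. Car2 went from 17.3 RPKM (786 reads) to 35.4 RPKM (1914 reads), which is a log2 ratio of 1.03 (0.91 to 1.15). That change was larger than in KH2 cells by 0.92 on the log2 scale (0.75 to 1.09). Taking KH2 cells with Dox as the control, the log2 ratio of Car2 was 0.76 (0.67 to 0.86). Induced Msi1 and induced Msi2 thus left Car2 at nearly the same level, 34.3 and 35.4 RPKM, from different untreated levels.

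The other 5 genes were close to the untreated values of the same line when Msi2 was induced. Otoa was at 0.0917 RPKM (19 reads) without and 0.0972 RPKM (24 reads) with Dox, a log2 change of 0.08 (-0.78 to 0.95). Sh2d3c, at 0.490 RPKM (22 reads) and 0.467 RPKM (25 reads), changed by -0.07 (-0.89 to 0.76). Phkg1, the gene with the next largest value after Car2, went from 0.779 RPKM (56 reads) to 1.07 RPKM (92 reads), giving a log2 ratio of 0.46 (-0.02 to 0.94). Prelp changed by 0.34 (-0.12 to 0.80) and Cacng6 by 0.25 (-0.50 to 1.0), so that for all 5 the interval included 0. The upper ends of these intervals, 0.76 to 1.0, leave room for changes of up to 2-fold. With KH2 cells with Dox as the control in place of untreated tetO-Msi2 cells, the picture was another: Sh2d3c was 2.13-fold higher (log2 1.09, 0.19 to 2.0), Cacng6 (0.73, 0.01 to 1.45) and Prelp (0.58, 0.16 to 1.0) were higher by less, Otoa was at 0.23 (-0.56 to 1.01) and Phkg1 was lower (-0.48, -0.84 to -0.11). Under that control Sh2d3c, and not Car2, passed the 2-fold limit. The Msi2 mRNA itself was 5.52-fold higher, and the Msi1 mRNA of tetO-Msi1 cells 5.48-fold higher at E12.5. The difference of the 2 lines' changes was 2.68 for Otoa (1.63 to 3.73), 1.45 for Prelp (0.87 to 2.03), 1.44 for Sh2d3c (0.44 to 2.44), 1.44 for Cacng6 (0.31 to 2.58), 0.77 for Phkg1 (0.20 to 1.35) and 0.38 for Car2 (0.20 to 0.55). As the tetO-Msi1 change chose the genes, these differences are a description.

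**Figure D2:**
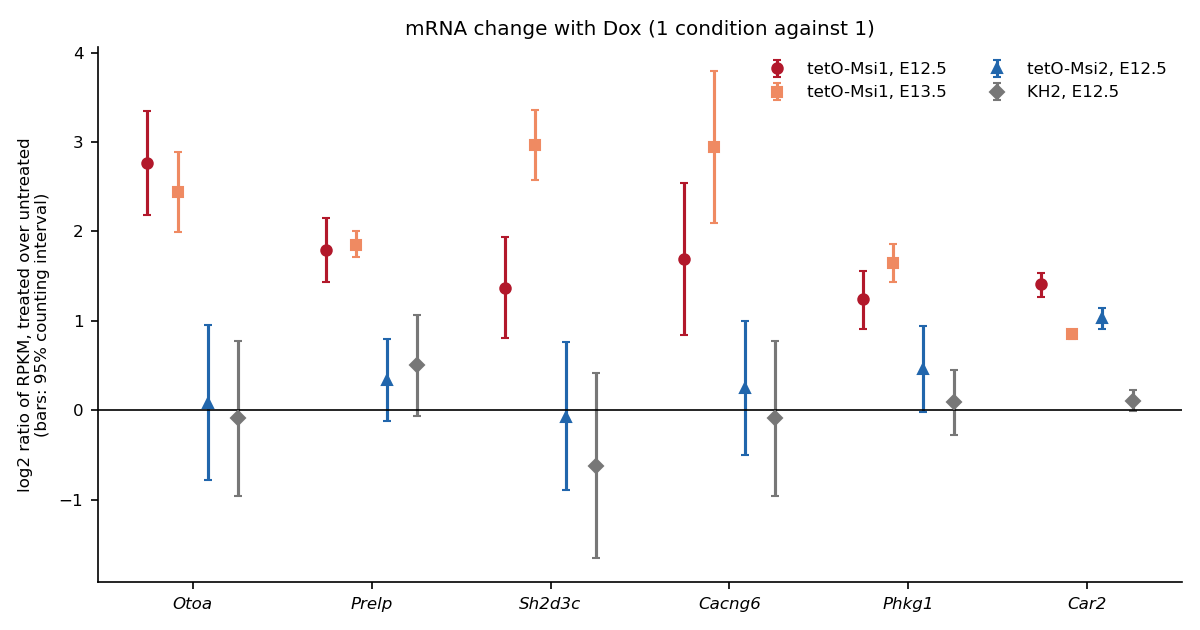
Log2 ratio of RPKM with over without Dox (vertical axis) for each gene (horizontal axis) in tetO-Msi1 cells of both stages, tetO-Msi2 cells and KH2 cells, each 1 condition against 1; bars are 95% counting intervals. All tetO-Msi1 points lie between 0.85 and 2.97, and among the tetO-Msi2 and KH2 points the interval of Car2 in tetO-Msi2 cells (0.91 to 1.15) is the one that leaves out 0.

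In untreated cells, the stage and the set of lines also went with different levels of some of the 6 genes. Stages were compared on counted reads, over KH2 and tetO-Msi1 cells with line as a block (edgeR quasi-likelihood test with Benjamini-Hochberg adjustment over 11893 genes), where 50.8% of all genes differed. Of the 5 genes that passed the filter on low counts, 2 differed. Car2 was higher at E13.5, with 78.2 and 80.8 CPM (counted reads scaled to the same total in every library) in KH2 and tetO-Msi1 cells against 63.2 and 43.8 at E12.5 (log2 difference 0.60 ± 0.145, SE, edgeR adjusted p = 0.00573). Phkg1 was lower at E13.5, with 3.43 and 4.0 CPM against 7.29 and 7.74 (log2 difference -1.01 ± 0.239, SE, edgeR adjusted p = 0.00518). On deposited RPKM, whose denominators differ between the stages, the Phkg1 log2 difference was -0.05 in each line and that of Car2 was 1.34 in KH2 and 1.79 in tetO-Msi1 cells. The direction for Car2 thus held on both scales and that for Phkg1 rested on counted reads. Prelp (log2 0.62, edgeR adjusted p = 0.0556), Sh2d3c (-0.95, 0.0790) and Otoa (-0.75, 0.155) did not pass the test, and Cacng6, with 11 to 20 reads in these 4 libraries, was not tested. Stage and sequencing set cannot be told apart.

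Untreated C1 and C4 cells were compared in the same way with the 3 tet-inducible lines, also untreated and from E12.5 (edgeR, 12211 genes, no covariate), where 66.3% of all genes differed. Of the 6 genes 4 differed, a share close to that of all genes. Car2 was higher in the floxed lines, with 214 CPM in C1 and 168 in C4 cells against 43.8 to 63.2 in the 3 others (log2 1.8 ± 0.180, SE, edgeR adjusted p = 0.000237). Sh2d3c, at 0.211 and 0.175 CPM against 1.09 to 2.42, was lower by far (log2 -3.14 ± 0.475, SE, edgeR adjusted p = 0.00135), as was Cacng6, at 0.158 and 0.131 against 0.968 to 1.76 (log2 -3.16 ± 0.458, SE, edgeR adjusted p = 0.00113). Otoa was lower by 1.62 on the log2 scale (edgeR adjusted p = 0.00417), while Prelp (-0.49, adjusted p = 0.261) and Phkg1 (-0.25, adjusted p = 0.479) did not pass the test. Sh2d3c, Cacng6 and Otoa were under 1 CPM in both floxed lines and passed the filter on low counts only through the tet lines. Genes this low in the floxed lines could enter only if higher in the tet lines, so their calls are a description. On deposited RPKM, whose denominators differ between the sets, Otoa was at 0.0617 and 0.0665 in C1 and C4 cells against 0.0884 to 0.100. Phkg1, at 2.20 and 2.12 against 0.779 to 1.44, was higher in the floxed lines on that scale. Prelp was at 0.755 and 1.11 against 0.400 to 0.771. The directions for Car2, Sh2d3c, Cacng6 and Otoa thus held on both scales, and those for Prelp and Phkg1 rested on counted reads. The lines were sequenced in different sets, so line and set cannot be told apart.

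Neither Otoa nor Sh2d3c was lower in the C4 library labelled 4-OHT. Otoa went from 0.0665 RPKM (22 reads) to 0.153 RPKM (61 reads) with 4-OHT, a log2 change of 1.20 (0.50 to 1.91), and Sh2d3c from 0.112 RPKM (8 reads) to 0.313 RPKM (27 reads), or a log2 ratio of 1.49 (0.35 to 2.63). In C1 cells, which lack CreER, Otoa was at 0.0617 RPKM (25 reads) and 0.0557 RPKM (20 reads), which is a log2 ratio of -0.15 (-1.0 to 0.70), and Sh2d3c at 0.137 RPKM (12 reads) and 0.129 RPKM (10 reads), a change of -0.09 (-1.30 to 1.12). Both genes were thus at least 2-fold higher in C4 cells, as were 2.24% of 13410 genes, and none of the 6 was in C1 cells, where 0.914% of 13571 genes were. The C4 change exceeded the C1 change by 1.35 for Otoa (0.25 to 2.45) and by 1.58 for Sh2d3c (-0.09 to 3.24). With 1 library per condition and 8 to 61 reads, these differences have no replicate check.

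The other genes followed 4-OHT alike in both lines or hardly moved. Phkg1 went from 2.20 RPKM (310 reads) to 1.20 RPKM (150 reads) in C1 cells, a log2 change of -0.87 (-1.15 to -0.59), and from 2.12 RPKM (244 reads) to 1.26 RPKM (174 reads) in C4 cells, a log2 change of -0.75 (-1.03 to -0.47). Prelp went from 0.755 RPKM (139 reads) to 0.558 RPKM (91 reads) in C1 cells (log2 -0.44, -0.82 to -0.05) and from 1.11 RPKM (167 reads) to 0.658 RPKM (119 reads) in C4 cells (log2 -0.76, -1.09 to -0.42). Car2 changed by -0.01 (-0.04 to 0.03) in C1 cells, from 137 RPKM (12171 reads) to 137 RPKM (10725 reads), and by 0.16 (0.12 to 0.21) in C4 cells, from 106 RPKM (7697 reads) to 119 RPKM (10374 reads). Cacng6 had 6 to 9 reads per library, too few to show a change.

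Over both lines together, with line as a block, 5.5% of 11626 genes passed the edgeR test for 4-OHT, and 3 of the 6 genes could be tested. Phkg1 fell with 4-OHT (log2 -0.85 ± 0.177, SE, edgeR adjusted p = 0.0297), a call lost with DESeq2 (adjusted p = 0.153) and without the line block (adjusted p = 0.276). Prelp (log2 -0.64, edgeR adjusted p = 0.166) and Car2 (log2 0.04, edgeR adjusted p = 0.764) did not pass the test. Since Phkg1 and Prelp were lower also in C1 cells, where no CreER is present, the size of a change in C4 cells beyond that of 4-OHT is the difference between the lines, 0.12 for Phkg1 (-0.28 to 0.52) and -0.32 for Prelp (-0.83 to 0.19).

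**Figure D3:**
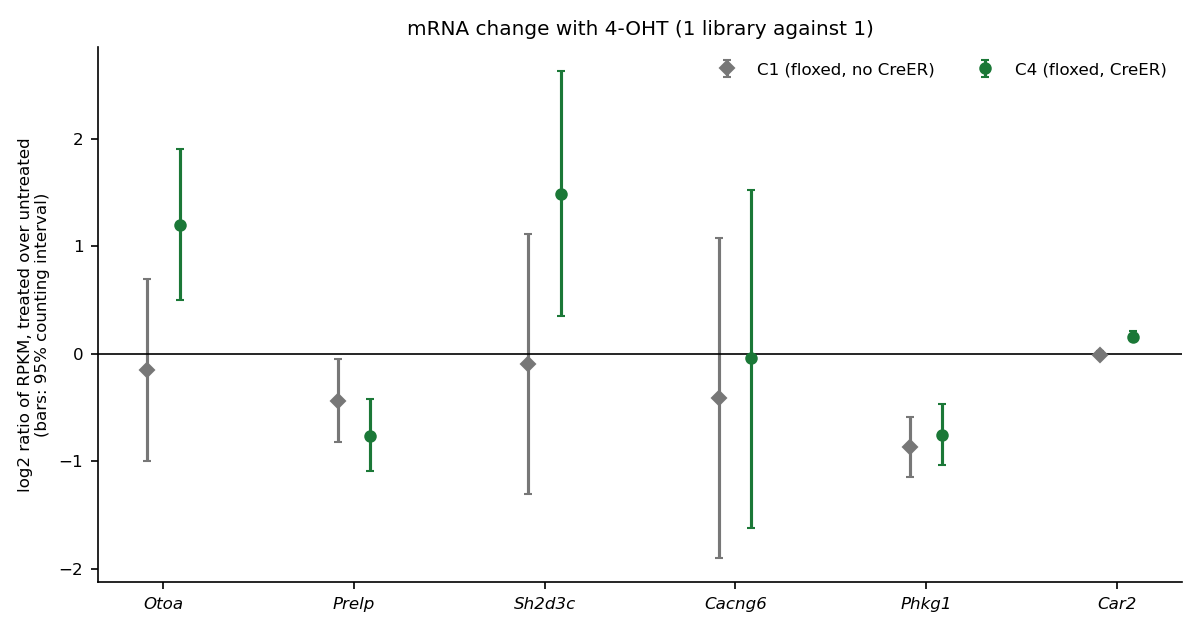
Log2 ratio of RPKM with over without 4-OHT (vertical axis) for each gene (horizontal axis) in C1 cells, floxed without CreER, and C4 cells, floxed with CreER, each 1 library against 1; bars are 95% counting intervals. Otoa (1.20) and Sh2d3c (1.49) lie above 0 in C4 cells and near 0 in C1 cells, and Phkg1 lies below 0 in both (-0.87 and -0.75).

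Ribo-Seq was made from separate libraries at E12.5, and its counts did not enter the choice of the genes. Car2 was the one gene of the 6 with enough footprints to compare. In tetO-Msi1 cells it had 46 footprint reads (2.09 RPKM) without and 57 (8.69 RPKM) with Dox, a log2 change of 2.06 (1.49 to 2.62), and was among the 6.4% of 8424 genes whose footprints were at least 2-fold higher. In KH2 cells it had 27 footprint reads (3.18 RPKM) without and 41 (4.54 RPKM) with Dox, a log2 change of 0.51 (-0.19 to 1.21), and was not among the 4.38% of 8296 genes at least 2-fold higher there. Its translational efficiency (TE, the footprint RPKM divided by the mRNA RPKM) was 0.162 without and 0.254 with Dox in tetO-Msi1 cells, a log2 change of 0.65 (0.07 to 1.22), and 0.165 and 0.217 in KH2 cells, a log2 change of 0.40 (-0.31 to 1.11). The TE changes of the 2 lines overlapped in their intervals, and the median TE change over all genes was 0.04 and 0.15.

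Otoa and Cacng6 gave footprints in 1 of the 8 libraries, that of tetO-Msi1 cells with Dox, which was the shallowest. Otoa had 4 reads there (0.552 RPKM) and 0 in the other 7. With untreated tetO-Msi1 cells set at a floor of 3 reads (0.123 RPKM), the ratio was 4.47. That ratio leaves out the counting error of the 4 reads and is no lower bound. Cacng6 had 3 reads there and 0 in the other 7, and no fold is given since 3 reads is the floor. Phkg1 had 4 footprint reads with and 2 without Dox in tetO-Msi1 cells (log2 change of RPKM 2.75, 0.30 to 5.19) and 0 in both KH2 libraries. Prelp had 2 and 3 reads and Sh2d3c 1 and 2 reads in tetO-Msi1 cells with and without Dox, too few to show a change.

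With 4-OHT, footprints of Car2 went from 1230 reads (70.3 RPKM) to 520 reads (32.6 RPKM) in C1 cells, a log2 change of -1.11 (-1.26 to -0.96). The median gene of this pair changed by -1.44 and 78.2% of genes were at least 2-fold lower, so that relative to the median gene Car2 was higher by 0.34. In C4 cells Car2 went from 311 reads (16.0 RPKM) to 335 reads (19.1 RPKM), a log2 change of 0.25 (0.03 to 0.47), beside a median of -0.14 over all genes. None of the other 5 genes had a footprint read in either library with 4-OHT, and their untreated libraries held at most 6 reads, those of Sh2d3c in C4 cells.

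**Figure D4:**
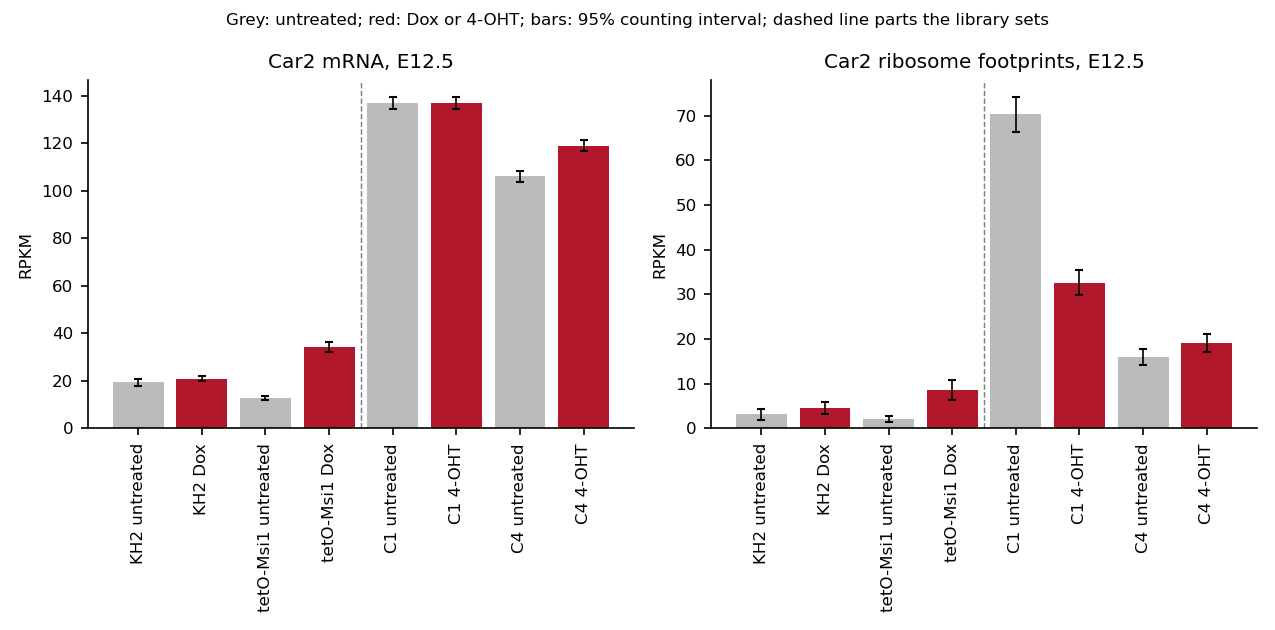
Car2 mRNA (left) and ribosome footprints (right) in RPKM in the 8 E12.5 conditions that have both assays, in grey for untreated cells and in red for cells given Dox or 4-OHT; bars are 95% counting intervals and the dashed line parts the library sets, between which RPKM is not compared. Dox went with 34.3 against 12.9 RPKM of mRNA and with 8.69 against 2.09 RPKM of footprints in tetO-Msi1 cells.

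Relatives and partners of the 6 genes were examined in the test of Dox in tetO-Msi1 cells over both stages (edgeR, stage as a block, 11938 genes). In it 430 genes passed, of which 213, or 1.78% of all tested, were higher and 217 were lower. That fit had 1 residual degree of freedom and took its spread wholly from that shared across genes. A p-value from it thus did not measure a gene's own agreement between the stages. Without the stage block no gene passed in edgeR, with 58 at an unadjusted p under 0.05, beside 104 in DESeq2 with the block. The small leucine-rich proteoglycans, the family of Prelp, had 15 members in the files and 4 above the filter, and 1 of these rose. Bgn (biglycan, a matrix proteoglycan) went from 0.526 to 0.952 RPKM at E12.5 and from 0.285 to 0.795 RPKM at E13.5 (log2 1.14, edgeR adjusted p = 0.0266; 0.486 with DESeq2; 0.156 without technical replicate 2). Optc, which lies 2.31 kb from Prelp and belongs to the same family, did not pass the test (log2 0.04, edgeR adjusted p = 0.981). The family's median log2 change was 0.12, beside -0.005 over all genes tested.

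The carbonic anhydrases and bicarbonate or proton transporters, relatives and partners of Car2, had 11 of 16 members in the files above the filter, of which 0 rose and 1 fell. Car3, a muscle-type carbonic anhydrase whose gene lies 14.1 kb from Car2, went from 6.71 to 3.44 RPKM at E12.5 and from 19.1 to 16.0 RPKM at E13.5 (log2 -0.60, edgeR adjusted p = 0.0320; 0.353 with DESeq2). Its direction was opposite to that of Car2. The list's median was -0.12. Of the 12 nearest neighbours of the 6 genes, 7 were tested, and Car3 was the 1 that passed.

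Among calcium channel subunits, the gamma subunits related to Cacng6 and the AMPA receptor subunits that several of them escort, 18 of 24 were tested, 0 rose and 4 fell, with a median of 0.01. Cacna1g, a T-type channel pore subunit, fell from 0.161 to 0.0962 RPKM at E12.5 and from 0.903 to 0.380 RPKM at E13.5 (log2 -1.16, edgeR adjusted p = 0.00182; 0.254 with DESeq2). The other 3 were AMPA receptor subunits. Gria2 fell from 17 to 12.9 RPKM and from 65.6 to 39.7 RPKM (log2 -0.61, edgeR adjusted p = 0.00530; 0.0471 with DESeq2). Gria4 fell from 6.61 to 4.16 RPKM and from 8.83 to 5.28 RPKM (log2 -0.75, edgeR adjusted p = 0.000475; 0.0104 with DESeq2). Gria3 fell from 4.12 to 2.89 RPKM and from 11.1 to 7.05 RPKM (log2 -0.64, edgeR adjusted p = 0.00774; 0.0866 with DESeq2). Cacng8, the neighbour of Cacng6 at 10.1 kb and an AMPA receptor partner, did not pass the test (log2 0.18, edgeR adjusted p = 0.761), and in KH2 cells the log2 changes of Gria2, Gria3 and Gria4 with Dox were -0.06, 0.24 and -0.03. In tetO-Msi2 cells the log2 changes of Gria2, Gria3 and Gria4 with Dox were -0.30, -0.42 and -0.28, also without a test.

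No other list had a member that passed. Of the subunits of phosphorylase kinase and the glycogen enzymes around Phkg1, 0 of 18 tested passed in edgeR, with a median of -0.02, and Calm3, which encodes calmodulin, a subunit of the kinase, had a log2 change of 0.08. Of the partners of Sh2d3c 0 of 14 passed, with a median of 0.08, and Rap1b and Crk, a small GTPase and an adaptor of adhesion signalling, had log2 changes of -0.22 and 0.49. Of the relatives of otoancorin and inner ear matrix genes only Tecta, which encodes alpha-tectorin, was above the filter, with a log2 change of 0.65 (edgeR adjusted p = 0.409), and Otog had 172 reads in all RNA-Seq libraries.

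**Figure D5:**
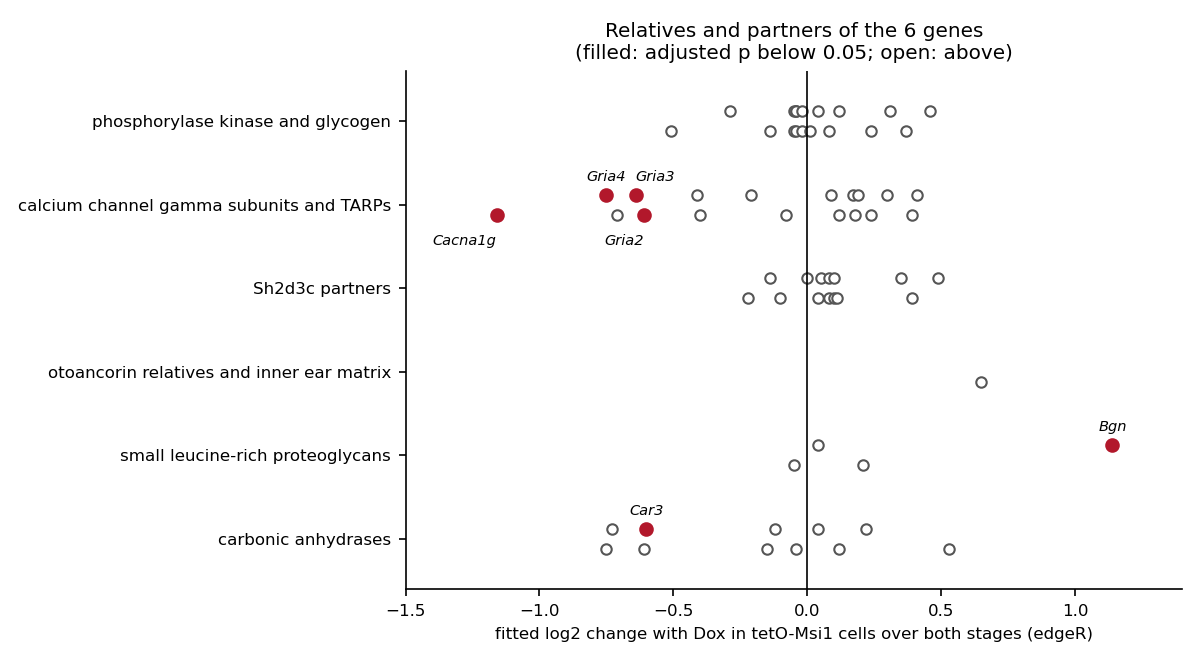
Fitted log2 change with Dox in tetO-Msi1 cells over both stages (horizontal axis) for each tested relative or partner of the 6 genes, by list; filled points passed the edgeR test at an adjusted p of 0.05 and are named. Bgn (1.14) lies to the right of 0, and Cacna1g (-1.16), Gria4 (-0.75), Gria3 (-0.64), Gria2 (-0.61) and Car3 (-0.60) to the left.

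Few markers of other cells that a cortical culture can hold passed the same test. Oligodendrocyte lineage markers summed to 406 RPKM without and 400 RPKM with Dox at E12.5 and to 727 and 1080 RPKM at E13.5, and of 7 tested Pdgfra fell (log2 -0.54, edgeR adjusted p = 0.0247; 0.160 with DESeq2). Astrocyte markers summed to 331 and 344 RPKM at E12.5 and to 580 and 648 RPKM at E13.5, and of 5 tested Gfap fell in the fit over both stages (log2 -0.77, edgeR adjusted p = 0.00675; 0.5 with DESeq2). Gfap was at 0.825 RPKM without and 0.875 RPKM with Dox at E12.5, and at 26.0 and 12.8 RPKM at E13.5. S100b of the same list, named after its values were seen, was at 2.74 and 5.77 RPKM at E12.5 and at 7.18 and 11.1 RPKM at E13.5 (log2 0.76, edgeR adjusted p = 0.0686), with a log2 change of 1.08 in tetO-Msi2 cells. None of the 8 neural stem, 4 neuronal and 2 fibroblast or pericyte markers tested passed. Erythroid, endothelial and microglial markers summed to at most 0.371 RPKM in these 4 conditions, and Hbb-b1 and Cx3cr1 were listed at 0 in every RNA-Seq library. The part of these cells in the levels of the 6 genes was not tested.

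Beside the 6 genes, 28 others were at least 2-fold higher with Dox at both stages with at least 10 reads in each library with Dox. The smaller of their 2 log2 changes ran from 1.01 to 2.03. They include Msi1 itself (log2 2.45 and 2.03), Dok3, an adaptor of immune receptor signalling (1.79 and 1.56), Rsph1, a component of the radial spokes of motile cilia (1.54 and 2.56), and Enpp1, an ectonucleotide pyrophosphatase (2.23 and 1.46). Dok3, Rsph1 and Enpp1 were named after their values were seen, as those with the largest smaller change among genes of known role. In tetO-Msi2 cells their log2 changes with Dox were 1.29, 0.97 and 1.55, above those of the 5 genes other than Car2, and in KH2 cells 0.89, 0.19 and 0.41.

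Across the 13 RNA-Seq conditions, the profiles of the 6 genes were alike mainly through the 4 conditions of tetO-Msi1 cells. The Pearson r of log2(RPKM + 0.5) between pairs of the 6 had a median of 0.69 (15 pairs, -0.47 to 0.88), and a median of 0.12 (-0.89 to 0.73) over the 9 conditions without tetO-Msi1 cells. Otoa with Sh2d3c and Prelp with Sh2d3c, each at 0.88, were the most alike, and without tetO-Msi1 cells Sh2d3c with Cacng6 (0.73) and Otoa with Sh2d3c (0.66) were. Car2 was the least like the others, with -0.47 to 0.30. Among 10848 other genes with a mean of at least 1 RPKM, the genes whose profiles were most like the mean profile of the 6 included Cpt1b, a carnitine palmitoyltransferase (0.849), ENSMUSG00000073019 (0.821), AA415398 (0.821) and Msi1 (0.816), and these values were 0.436, -0.06, 0.234 and 0.191 without tetO-Msi1 cells. These correlations span 3 library sets whose RPKM denominators differ, and are a description. The 6 genes were chosen for their rise with Dox in tetO-Msi1 cells. Their likeness over all 13 conditions, also that to Msi1, therefore follows largely from the choice.

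The strand of counting is not given in the sources used here, so reads of overlapping genes cannot be assigned by strand. Otoa, Cacng6 and Car2 overlap no other annotated gene. Phkg1 overlaps Chchd2, listed at 0 reads, on its own strand and Sumf2 and 2410018M08Rik on the other, with log2 changes of 0.01 (edgeR adjusted p = 0.987) and -0.30 (adjusted p = 0.702) with Dox in tetO-Msi1 cells. Whether the listed 0 of Chchd2 means no transcript or no counted sequence is not known here. Sh2d3c overlaps 6330409D20Rik, which had 8 reads in all RNA-Seq libraries, and Prelp overlaps an antisense transcript, Gm15851. Reads were counted over 2326 nt of Otoa, 1057 nt of Prelp, 807 nt of Phkg1, 623 nt of Cacng6, 509 nt of Car2 and 504 nt of Sh2d3c, so that levels of different genes are comparable per length only.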

How the data were processed

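RNA-Seq of 14 libraries (13 conditions) and Ribo-Seq of 8 was analysed. The authors aligned reads with Bowtie and TopHat to mm9 per the labels' processing notes (versions not given in the sources used here) and deposited read counts per Ensembl gene with RPKM beside them. The strand of counting is not given in the sources used here.

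The 6 genes and all lists were chosen with earlier results of these data known. Ratios of deposited RPKM, 1 condition over 1, were given with 95% counting intervals, which cover counting error only. Shares over all genes used genes with at least 5 reads in both libraries. A gene at 0 reads was set at a floor of 3 reads. Counts were tested with edgeR 4.0.16 (quasi-likelihood, TMM, R 4.3.3, limma 3.58.1) for genes with CPM of at least 1 in 2 libraries, with Benjamini-Hochberg adjustment over all genes tested and a threshold of 0.05. DESeq2 1.42.0 was an alternative. The tests were also run on simulated counts with the same spread for all genes, which does not check them for genes whose spread differs. Figures were drawn with matplotlib 3.10.9. Named relatives are those past the threshold (at most 4 a list, largest change first) or else the 2 with the highest mean RPKM. Motifs were searched in NCBIM37 3′ UTRs and GRCm38.p6 promoters. Values of some genes that these rules select are not reported here.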

Additional observations from a re-analysis of the deposited data

Results flagged for a closer look

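The log2 changes of Otoa and Car2 with 4-OHT differed in sign between C4 and C1 cells, and the counting interval of the difference between the lines left out 0. For Otoa the change in C4 cells exceeded that in C1 cells by 1.35 (0.25 to 2.45). For Car2 the same difference was 0.17 (0.11 to 0.23). The C1 changes themselves, -0.15 (-1.0 to 0.70) for Otoa and -0.01 (-0.04 to 0.03) for Car2, had intervals that include 0, so a change in the opposite direction is not shown. The signs also differed for Sh2d3c, with an interval of the difference that includes 0 (1.58, -0.09 to 3.24). None of these differences was tested, since each line gave 1 library per condition.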

How the results depend on the processing

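Each condition was 1 library, so intervals of single pairs reflect read numbers only, and Cacng6, Sh2d3c and Otoa, with the fewest reads, are the least precise. The E12.5 library with induced Msi1 was the shallowest in both assays. The cause of the shifts below was not tested.

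For Dox in tetO-Msi1 cells over both stages, 430 genes passed in edgeR with stage as a block, 104 in DESeq2, and 0 in edgeR without the stage block (58 at an unadjusted p under 0.05 there). Leaving out 1 technical replicate gave 419 to 428. For 4-OHT, 639 genes passed with line as a block, 1254 with no filter on low counts, and 0 in edgeR without the line block (1124 at an unadjusted p under 0.05), beside 514 in DESeq2 with it. For the floxed lines, 8093 genes passed, and 5999 to 8483 when 1 library was left out. The median log2 change of the 6 genes, 1.55 at E12.5 and 2.15 at E13.5, was 0.99 and 1.21 with 0.5 added to RPKM and 0.58 and 0.86 with 2 added, and 2.06 to 2.38 at E13.5 with 1 technical replicate left out. In C1 footprints the Car2 change of -1.11 became 0.34 after median-ratio rescaling. With alternatives chosen after seeing the data, the 46 genes at least 2-fold higher at both stages became 37 with TMM and 38 with median-ratio scaling. They became 65 with KH2 cells as controls and 244 in E13.5 libraries only. That 5 of the 6 genes were among them each time follows largely from their choice on the same libraries with Dox. Of the other values for whole comparisons, 38 stayed on their side of the threshold or within the spread. Of the values for single genes, 210 did so, 33 moved, 17 were no longer past the threshold, 1 newly was and 1 (Car2 above) reversed. With KH2 cells with Dox as the control for tetO-Msi2 cells, Sh2d3c moved from -0.07 to 1.09, Phkg1 from 0.46 to -0.48 and Car2 from 1.03 to 0.76.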
